A study of Mus musculus with 7 samples.

Results

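The 10 genes described here, Per1, Per2, Per3, Cry1, Cry2, Arntl, Clock, Nr1d1, Dbp and Tef, belong to the mammalian circadian clock, and they were read by 24 of the 45037 non-control probe sets of the array, which covered 18193 genes. A probe set is a group of short oligonucleotides against 1 transcript, and a probe set was taken where the platform annotation gave a member's symbol and no other. Per3 had 6 probe sets, Clock had 4, Per2 and Tef had 3 each, Arntl and Dbp had 2 each, and Per1, Cry1, Cry2 and Nr1d1 had 1 each. The genes were chosen from results of this same genotype comparison, with the difference of Per1 between the genotypes already known, so that the genotype differences of all 24 probe sets are given as a description, with no test drawn from them.

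The arrays compared erythroblasts with and without SOD2, the manganese enzyme that clears superoxide inside mitochondria, in a mouse model of sideroblastic anemia made by transplantation. Donor cells came from the livers of littermate embryos of heterozygous B6-Sod2tm1Cje parents at E13.5 to E16.5, and were either Sod2+/+ or Sod2-/- in every cell. The hosts of both groups were irradiated C57BL/6 females congenic at the Ly5 locus (Ly5.1), aged 11 to 15 weeks, whose own tissues were Sod2+/+. Marrow cells carrying both TER-119 and CD71 were sorted, with no Ly5 marker in the described sort, so that any host erythroblasts were sorted too; 4 Sod2+/+ samples (17, 29, 33 and 37) and 3 Sod2-/- samples (31, 35 and 39) were hybridised to 1 array each, and the remaining Sod2-/- array that the methods count was not used here. No agent was given to 1 genotype alone. The hour of marrow collection, on which clock transcripts depend in living tissue, was not given in the sources used here. Pairs of genotypes were described as sorted in parallel, but the sample numbers do not say which samples formed a pair, and the labels do not say whether each sample came from a separate animal.

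The clock is a loop of transcription factors that feeds back on itself. CLOCK and ARNTL (also called BMAL1) bind E box sequences as a pair and activate the Per and Cry genes, whose proteins return to the nucleus and repress the pair. Nr1d1 encodes REV-ERB alpha, a heme-binding repressor of Arntl, and DBP and TEF are activators that bind D box sequences. In many tissues the transcript of Per1 also answers directly to glucocorticoids and to cyclic AMP through CREB, and behaves as an immediate early gene. Erythroblasts are the nucleated marrow precursors of red cells, and they make heme, the ligand of REV-ERB alpha, in large amounts.

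The regulatory letters that wire this loop were looked for in the 250 bases upstream of each annotated start, in RefSeq promoters of build GRCm38.p6, because the other members carry in part the same elements as Per1. RefSeq entries matched 9 of the 10 genes, with 14 starts. Per2 had no matched entry and was not searched. Both strands were searched for the E box (CACGTG), the E prime box (CACGTT), the D box (TTATGNAA), the CRE core (TGACG) and the core of the ROR and REV-ERB element (AGGTCA). The E box and the E prime box share 5 of their letters, no searched motif contains another, and a match is a description of the sequence, not a bound site. Of all 32851 starts searched, 6.02% held the E box, 3.85% the E prime box, 3.07% the D box, 17.8% the CRE core and 14% the AGGTCA core. Among the starts of the clock genes, the E box was found at 4 (Per1 at its upstream start, Cry1 and both starts of Tef), the E prime box at 3 (Cry1, Cry2 and Nr1d1), the D box at 2 (Per1 at its upstream start and Per3), the CRE core at 4 (both starts of Per1, Cry1 and Cry2) and the AGGTCA core at 2 (Per1 at its upstream start and 1 start of Clock). The upstream start of Per1 held 4 of these motifs, and both starts of Arntl, the start of Dbp and 2 of the 3 starts of Clock held none of them in this window. The windows below show 3 of the elements of Per1, and the E boxes of Cry1 and Tef and the D boxes of Per3, which share a motif with Per1. They also show the E prime box of Nr1d1, a variant of the E box that was not found at either start of Per1. The CRE cores of Cry1 and Cry2, also shared with Per1, are not printed. In each window the motif is in capitals and is written as it reads on the strand of the gene.
Per1 E box, upstream start, chr11:69098771-69098800 (+): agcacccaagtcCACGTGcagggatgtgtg
Per1 D box, upstream start, chr11:69098913-69098944 (+): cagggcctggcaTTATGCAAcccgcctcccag
Per1 CRE core, second start, chr11:69100008-69100036 (+): gagctcagcggcTGACGtcggtttccctg
Cry1 E box, chr10:85185097-85185126 (-): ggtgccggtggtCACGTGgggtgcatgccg
Tef E box, first start, chr15:81802534-81802563 (+): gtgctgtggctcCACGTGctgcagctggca
Tef E box, second start, chr15:81811264-81811293 (+): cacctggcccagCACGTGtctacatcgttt
Per3 D box, chr4:151044851-151044882 (-): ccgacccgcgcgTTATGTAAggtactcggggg
Per3 D box, chr4:151044804-151044835 (-): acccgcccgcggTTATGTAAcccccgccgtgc
Nr1d1 E prime box, chr11:98775388-98775417 (-): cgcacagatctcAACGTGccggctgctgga
The E box of Per1 began 166 bases before its upstream start, that of Cry1 began 60 bases before its start, and those of Tef began 127 and 138 bases before their starts. The 2 D boxes of Per3 began 205 and 158 bases before its start.

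Values are log2 expression values made by robust multi-array averaging, and signals of different probe sets are not amounts that can be set against each other, so each probe set was placed only within the distribution of its own arrays. The mean over the 7 samples was below the median of all probe sets, 4.48, for 13 of the 24 and below the lower quartile, 3.90, for 5, and it was above the upper quartile, 5.60, for 3: Per1, Per3 by 1421086_at and Tef by 1424175_at. Both probe sets of Arntl and all of Clock lay below that quartile, as did Cry1, Cry2, Nr1d1, Per2 and Dbp. The 10 erythroid markers measured (Slc4a1, Alas2 and Tfrc among them) averaged between 11.57 and 11.76 in each of the 7 samples. These means lay above the 95th percentile of every array, 8.20 to 8.71. Of these markers 0 passed the limma threshold, and 1 was higher before adjustment, beside 6.68% of all genes. Alas2 and Tfrc were higher in Sod2-/- samples without overlap, as were 1308 of all 18193 genes. The sort pooled stages of maturation, and the paper reported more immature basophilic erythroblasts in Sod2-/- marrow by flow cytometry. The part of such stages in the genotype differences was not tested. Dim signals compress differences, and a small difference in a dim probe set bounds the change of the signal rather than that of the transcript.

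**Figure D1:**
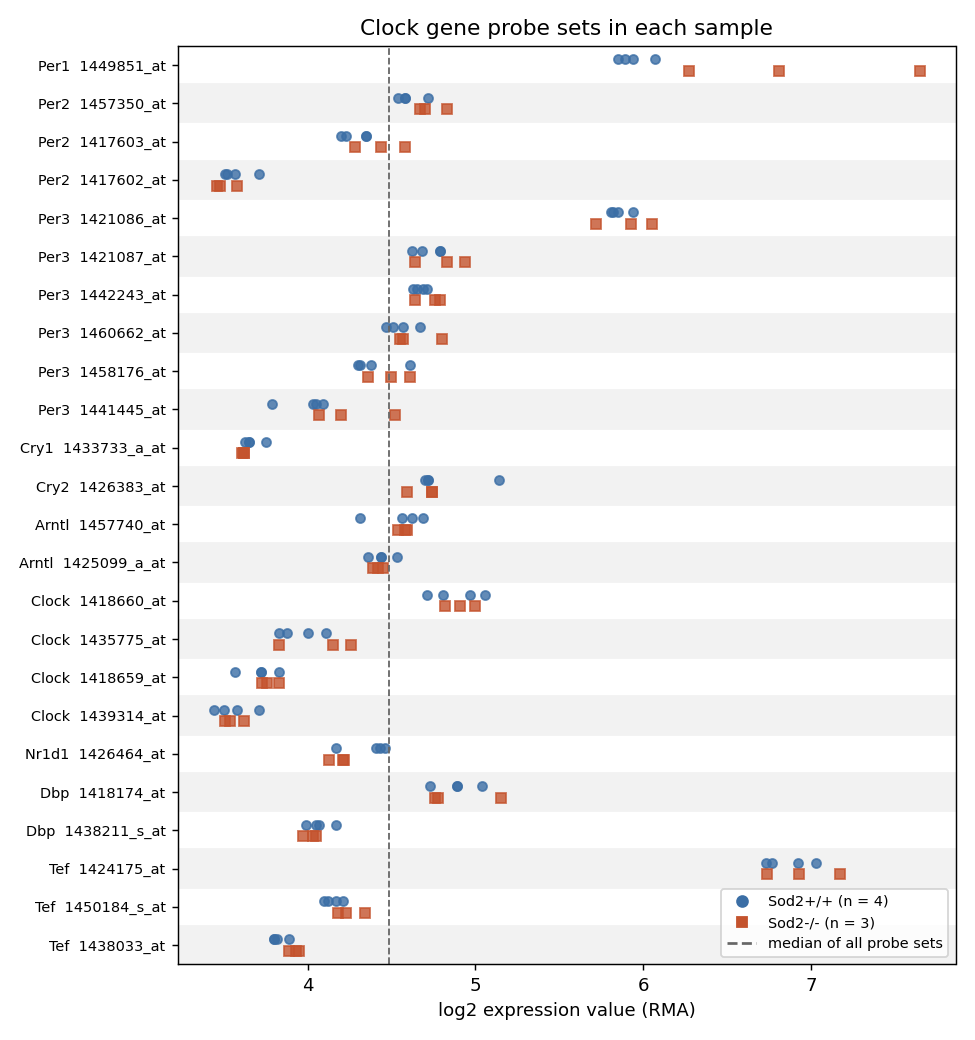
Log2 expression value (horizontal axis) of the 24 clock gene probe sets (rows) in each Sod2+/+ sample (circles) and each Sod2-/- sample (squares), with the median over all probe sets of the array as a dashed line. Per1 is the probe set in which the 3 Sod2-/- samples lie between 6.27 and 7.65 and the 4 Sod2+/+ samples between 5.85 and 6.07; in most other rows the groups overlap.

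Of the 24 probe sets, 0 were called higher and 0 lower in Sod2-/- samples by limma at a Benjamini-Hochberg adjusted p under 0.05, where 0.566% of all probe sets were called higher and 2.83% lower. Before adjustment, at p under 0.05, 2 were higher (Per1 and Per3 by 1441445_at) and 0 lower, beside 7.04% and 12.5% of all probe sets. The methods' t-test, adjusted in the same way, called 0 higher and 0 lower, beside 0.00222% and 0.00666%. The paper's own comparison also held the Sod2-/- array that was not used here. It lists Per1 among the transcripts higher in Sod2-/- erythroblasts after adjustment. The calls given here come from fewer arrays and cannot be set against that call of Per1. The groups did not overlap for 2 probe sets that were higher (Per1 and Tef by 1438033_at) and 1 that was lower (Cry1), beside 7.84% and 10.2% of all probe sets. The difference of means, Sod2-/- minus Sod2+/+, was above 0 for 18 of the 24 and below 0 for 6, with a median of 0.06 on the log2 scale beside 0.03 over all probe sets. With each array centred on its median, or after quantile normalization, it was above 0 for 14 of the 24, so that the sign of small differences depended on the scaling.

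Per1, a period gene, had the largest difference of the 10 genes, which was known when they were chosen. Its log2 expression value was 5.85, 6.07, 5.89 and 5.94 in the Sod2+/+ samples 17, 29, 33 and 37, and 7.65, 6.27 and 6.81 in the Sod2-/- samples 31, 35 and 39. All 3 Sod2-/- samples were above the highest Sod2+/+ sample, but sample 35 exceeded it only narrowly and sample 31 by much more. The means were 5.94 ± 0.10 (SD, n = 4) and 6.91 ± 0.70 (SD, n = 3), a log2 difference of 0.97 with a standard error of 0.27, or 1.97-fold. The values were spread over 1.39 log2 units within the Sod2-/- group and over 0.22 within the Sod2+/+ group, and so the group in which Per1 was higher was also the more variable. Leaving out sample 31 gave a log2 difference of 0.60, and leaving out sample 35 gave 1.30. Ranked by signed difference, Per1 was number 63 of the 45037 probe sets.

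Array handling differed between the samples. The array settings gave 2 fluidics stations, each with both genotypes, and the log2 difference of Per1 was 1.69 within the station that held Sod2+/+ samples 17 and 29 and Sod2-/- sample 31, and 0.63 within the station that held Sod2+/+ samples 33 and 37 and Sod2-/- samples 35 and 39. With the station as a block the difference was 1.05. The settings also gave 2 chip lots, of which 1 held all Sod2+/+ samples and sample 35, and the other held samples 31 and 39 and no Sod2+/+ sample. Within the first lot, and equally with the lot as a block, the log2 difference of Per1 was 0.33 and rested on sample 35 alone. For samples 31 and 39 chip lot and genotype cannot be told apart.

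Markers of other marrow cells gave signal in the same arrays, and several of them differed between the genotypes. Across all 18193 genes, 4.47% were called lower and 18.4% were lower before adjustment, and the counts of this paragraph are to be read against these shares. The mean over 10 B cell genes was 5.87 to 6.13 in Sod2+/+ and 5.14 to 5.35 in Sod2-/- samples, with 6 of the 10 called lower. The mean over 10 neutrophil genes was 11.19 to 11.58 in Sod2+/+ samples and 11.20, 9.94 and 10.62 in Sod2-/- samples 31, 35 and 39, with 0 of the 10 called by limma (8 were lower before adjustment, and S100a9, a defining gene, read 12.17 or above in each sample). The mean over 9 macrophage genes was 4.91 to 5.06 in Sod2+/+ samples and 4.97, 4.93 and 6.51 in Sod2-/- samples 31, 35 and 39. Within that list the mean of C1qa, C1qb and C1qc was 4.09 to 4.42 in Sod2+/+ samples and 4.22, 4.59 and 8.02 in Sod2-/- samples 31, 35 and 39. In sample 39, Adgre1 (5.03), Cd68 (6.05) and Csf1r (8.69) were also above the Sod2+/+ range. Vcam1 (6.41), Cd163 (3.59) and Marco (4.73) lay inside it. Of 9 macrophage genes 0 were called by limma, and 0 before adjustment. Of 6 eosinophil and mast cell genes, Prg2 and Epx, which encode eosinophil granule proteins, were called lower, with log2 differences of -1.83 and -1.87 (limma adjusted p 0.0286 and 0.0221). Cpa3, Fcer1a, Cma1 and Tpsb2 of that list differed by -0.19, -0.15, 0.06 and 0.02, and the list median was -0.17. Per1 was highest in sample 31, in which the neutrophil and C1q means lay within the Sod2+/+ range and the B cell mean was the lowest of the 7. The order of the Sod2-/- samples in Per1 was 31 above 39 above 35. It was also their order in the neutrophil mean and in the eosinophil and mast cell mean, and the B cell mean had the reverse order. The erythroid, macrophage, T cell and megakaryocyte and platelet means followed neither order. With 3 Sod2-/- samples few orders are possible. The list means of T cell genes (5.04 to 5.22) and of megakaryocyte and platelet genes (5.46 to 5.70) showed little spread over the 7 samples. Fewer cells of a type and less RNA per cell cannot be told apart in such bulk samples, and the part of other cells in the values of Per1 was not tested.

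**Figure D2:**
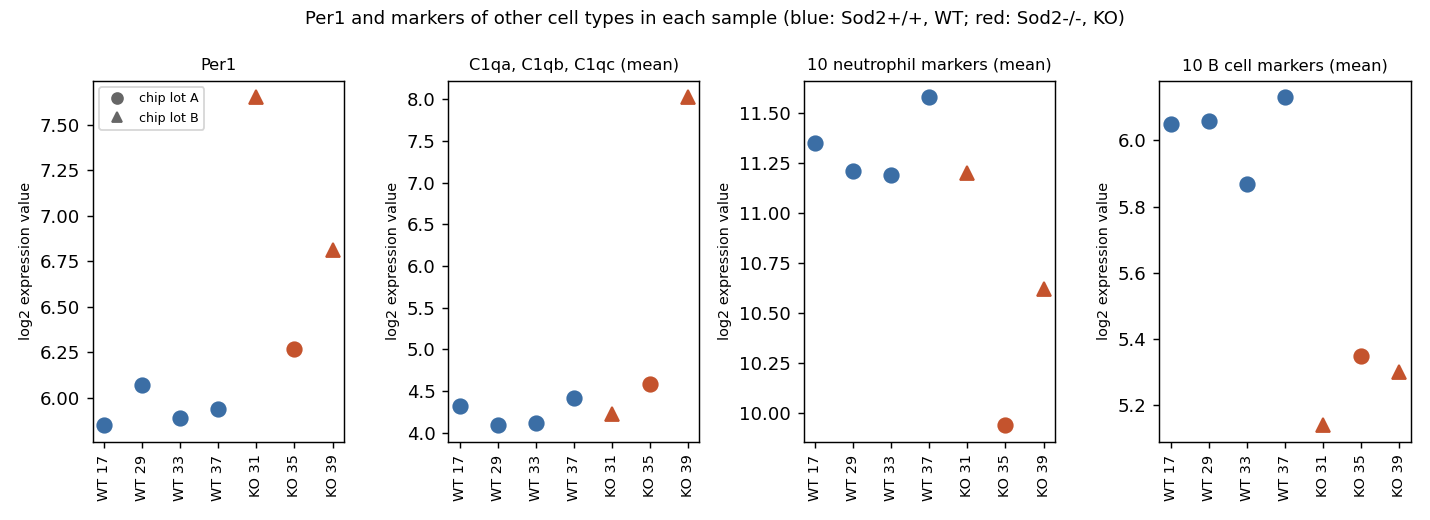
Log2 expression value (vertical axis, a separate scale in each panel) of Per1, of the mean of C1qa, C1qb and C1qc, and of the means of the neutrophil and B cell marker lists in each sample, with Sod2+/+ (WT) in blue, Sod2-/- (KO) in red, circles for chip lot A and triangles for chip lot B. Per1 was highest in sample 31 (7.65), the C1q mean in sample 39 (8.02), and the B cell mean was below 5.4 in each Sod2-/- sample.

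The other period genes, which encode partners of PER1 in the repressor complex, showed small differences. For Per2 by 1457350_at, its brightest probe set, the values were 4.72, 4.58, 4.58 and 4.54 in Sod2+/+ and 4.67, 4.83 and 4.70 in Sod2-/- samples, a log2 difference of 0.13 (SE 0.07). The groups overlapped through Sod2+/+ sample 17. For Per2 by 1417603_at the values were 4.35, 4.35, 4.20 and 4.23 against 4.44, 4.58 and 4.28, a log2 difference of 0.15 (SE 0.09), and for 1417602_at, which lay at the dim end of the array, the difference was -0.07 (SE 0.07). Per3 by 1421086_at read 5.82, 5.85, 5.94 and 5.81 in Sod2+/+ and 5.72, 6.05 and 5.93 in Sod2-/- samples, a log2 difference of 0.04 (SE 0.09), with sample 31 the lowest of the 7 and sample 35 the highest. The other 5 probe sets of Per3 had log2 differences from 0.06 to 0.27, the largest by 1441445_at, which read 4.05, 3.79, 4.09 and 4.03 against 4.07, 4.52 and 4.20. That difference rested on sample 35 at the upper end and sample 29 at the lower end, and the groups overlapped. Sample 35, in which Per1 was the lowest of the Sod2-/- samples, was the highest sample in the brightest probe sets of Per2 and Per3.

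The cryptochromes, the repressors that act with the PER proteins, had small negative differences. Cry1 by 1433733_a_at read 3.65, 3.63, 3.65 and 3.75 in Sod2+/+ and 3.61, 3.62 and 3.62 in Sod2-/- samples. The groups did not overlap, but the log2 difference was -0.05 (SE 0.06), and the probe set lay below the lower quartile of the array. Cry2 by 1426383_at read 4.72, 5.14, 4.72 and 4.70 in Sod2+/+ and 4.74, 4.74 and 4.59 in Sod2-/- samples, a log2 difference of -0.13 (SE 0.12). Sod2+/+ sample 29 lay far above the other 6 samples, which were between 4.59 and 4.74.

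The activator pair that drives the Per and Cry genes showed no difference beyond the spread of the samples. Arntl by 1457740_at read 4.56, 4.31, 4.62 and 4.69 in Sod2+/+ and 4.58, 4.59 and 4.54 in Sod2-/- samples, a log2 difference of 0.02 (SE 0.09), and its second probe set, 1425099_a_at, differed by -0.02 (SE 0.07). The 3 Sod2-/- samples lay inside the Sod2+/+ range in both. Clock by 1418660_at read 4.81, 4.97, 5.06 and 4.71 against 4.91, 4.82 and 5.00, a log2 difference of 0.02 (SE 0.10), again with each Sod2-/- sample inside the Sod2+/+ range. Its other 3 probe sets differed by 0.12, 0.07 and 5e-04, and the groups overlapped in each.

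Nr1d1, whose product represses Arntl, had the most negative difference of the members. Its log2 expression value was 4.41, 4.43, 4.46 and 4.17 in Sod2+/+ samples 17, 29, 33 and 37 and 4.13, 4.21 and 4.22 in Sod2-/- samples 31, 35 and 39. Sample 37 lay among the Sod2-/- samples, the other 3 Sod2+/+ samples above them, and the log2 difference was -0.18 (SE 0.08).

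The D box activators, whose genes are direct targets of the CLOCK and ARNTL pair in other tissues, had small differences in their brightest probe sets. Dbp by 1418174_at read 5.04, 4.89, 4.73 and 4.89 in Sod2+/+ and 4.76, 5.15 and 4.78 in Sod2-/- samples, a log2 difference of 0.01 (SE 0.11), with the highest value in sample 35 and low values in samples 31 and 39. Its second probe set, 1438211_s_at, differed by -0.05 (SE 0.07). Tef by 1424175_at, the brightest of all 24 probe sets, read 6.92, 6.77, 7.03 and 6.73 against 6.93, 7.17 and 6.74, a log2 difference of 0.08 (SE 0.12), with the groups overlapping almost throughout. In Tef by 1438033_at, where the groups did not overlap, the values were 3.82, 3.89, 3.80 and 3.80 against 3.93, 3.95 and 3.89, a log2 difference of 0.10 (SE 0.06); after centring or quantile normalization it was 0.06. Tef carries the E box of the windows above at both starts, and the part of that motif in these values was not tested.

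Leaving Per1 aside, the log2 differences of the 23 probe sets ran from -0.18 to 0.27, no more than 1.21-fold, with standard errors of 0.06 to 0.12. Their 95% intervals lay between -0.40 and 0.54, and 23 of the 23 lay inside a change of 1.5-fold in either direction on the scale of the array signal. Within the chip lot of the Sod2+/+ arrays, a comparison of 1 Sod2-/- sample, 35, with 4, the size of the largest difference among these 23 was 0.53 (Per3 by 1441445_at), which was above that of Per1 in the same comparison.

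**Figure D3:**
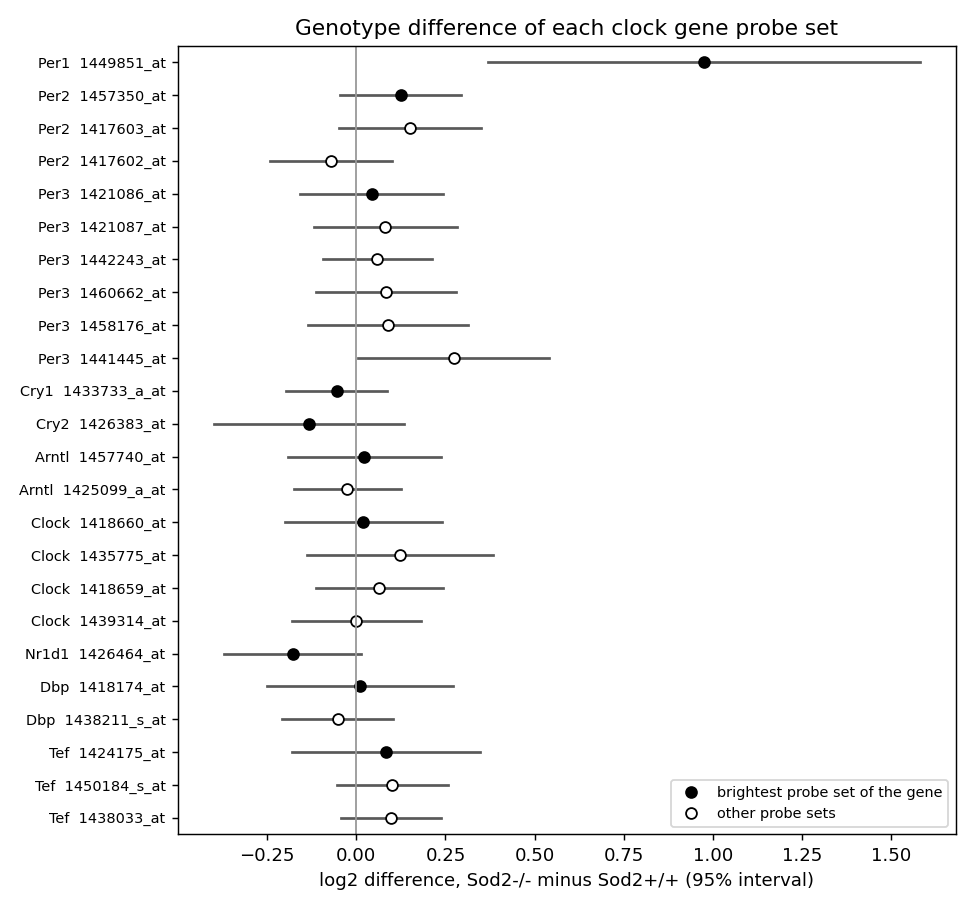
Log2 difference, Sod2-/- minus Sod2+/+ (points; bars are 95% intervals from the limma fit), of the 24 clock gene probe sets, with the brightest probe set of each gene filled. Per1 lies at 0.97 and the other 23 between -0.18 and 0.27; the members were chosen from this comparison and the intervals describe precision only.

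The genes whose values followed Per1 most closely over the 7 samples were Prrg3 (Pearson's r 0.98), Mab21l4 (0.97), Galnt18 (0.96), Mki67 (0.96) and 2310050C09Rik (0.95), each by its brightest probe set and picked for that likeness from all 18193 genes. Mki67, which encodes the proliferation marker Ki-67, read 12.35, 12.45, 12.42 and 12.43 in Sod2+/+ and 12.67, 12.51 and 12.58 in Sod2-/- samples, the same order of the Sod2-/- samples as Per1 over a much smaller range. Prrg3 read 4.87 to 4.90 in Sod2+/+ samples and 5.29, 4.94 and 5.04 in samples 31, 35 and 39. Mab21l4, Galnt18 and 2310050C09Rik were dim, near or below the lower quartile of 3.90. Their means were 3.60, 3.78 and 3.50 in Sod2+/+ and 3.80, 3.94 and 3.61 in Sod2-/- samples. Sample 31 was the highest of the 7 in each of these 5 genes, and no other member of the clock was among these 5 genes.

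Beyond the 10 members, 7 lists held other genes of the pathway and of the signals known to act on Per1, of which 80 of 86 were measured, each taken by its brightest probe set. Of these 80, 0 were called higher and 3 (3.75%) lower by limma at an adjusted p under 0.05, where 0.412% of all 18193 genes were called higher and 4.47% lower. Before adjustment, at p under 0.05, 3 were higher and 17 lower, beside 6.68% and 18.4% of all genes, and the methods' t-test called 0 higher and 0 lower. The groups did not overlap for 2 of the 80 that were higher and 9 that were lower, beside 1308 and 2699 of all 18193 genes. The median log2 difference was -0.08 beside 0.02 over all genes. Of all genes tested, a share close to that of these 80 was called lower.

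The 3 genes called lower were all cofactors of clock proteins, out of 11 measured in that list, and each has broad functions outside the clock. Ruvbl2, an ATPase of chromatin remodelling complexes that also acts on the CLOCK and ARNTL complex, read 7.40, 7.22, 7.30 and 7.43 in Sod2+/+ and 6.51, 6.72 and 6.75 in Sod2-/- samples, a log2 difference of -0.68 (SE 0.09, adjusted p = 0.0133 by limma). Every Sod2-/- sample was well below every Sod2+/+ sample. Hdac3, the histone deacetylase that NR1D1 recruits through its corepressor, read 5.80, 5.69, 5.68 and 5.89 against 5.27, 5.19 and 5.24, a log2 difference of -0.53 (SE 0.07, adjusted p = 0.0166 by limma). Nono, an RNA-binding protein found with the PER proteins, read 9.85, 10.04, 9.84 and 9.82 against 9.62, 9.32 and 9.43, a log2 difference of -0.43 (SE 0.09, adjusted p = 0.0448 by limma). The groups did not overlap in any of the 3, nor in 2699 of all 18193 genes with lower values in Sod2-/- samples. With the chip lot as a block the differences were -0.62, -0.57 and -0.57, and none of the 3 passed the threshold (adjusted p 0.0639, 0.0549 and 0.0722 by limma), and none passed by the methods' t-test. After quantile normalization the calls of Ruvbl2 (-0.47, adjusted p = 0.0557 by limma) and Nono (-0.26, adjusted p = 0.0791 by limma) were lost. Hdac3 lost its call without sample 35 (adjusted p = 0.0667 by limma), and Nono lost it without any 1 of the samples 17, 29, 33, 37, 35 or 39 (limma adjusted p 0.0653 to 0.152); Nono over the mean of all its probe sets differed by -0.22. The probe sets of Hdac3 and Nono carry the suffix of sets that can match more than 1 transcript, so that signal of related transcripts cannot be separated there.

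**Figure D4:**
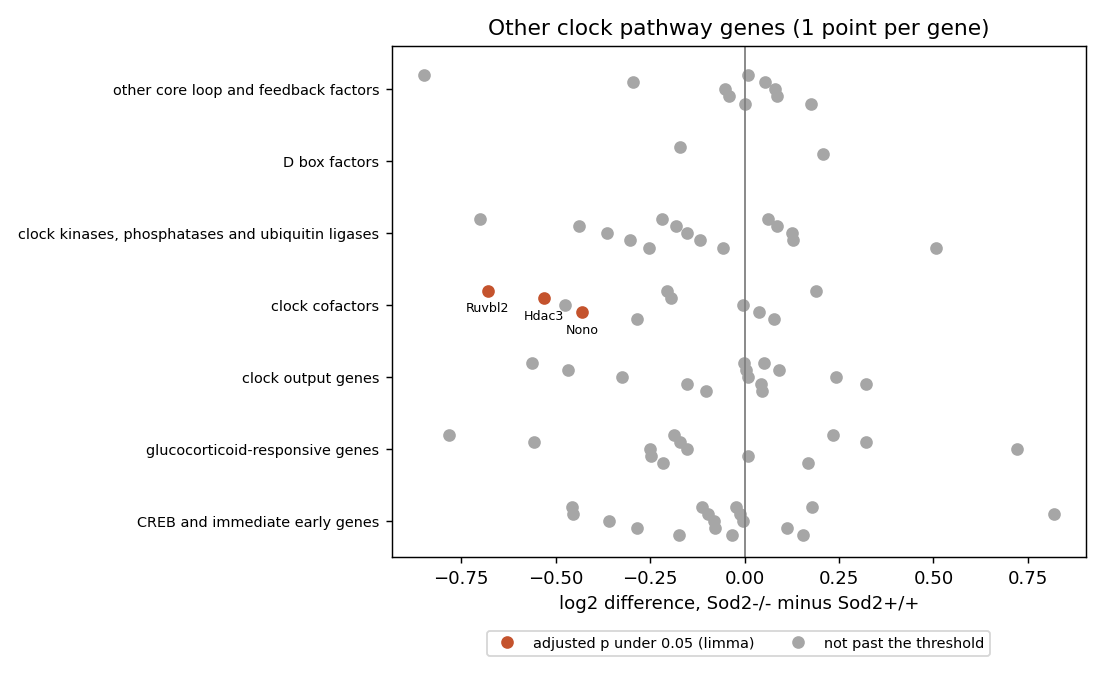
Log2 difference, Sod2-/- minus Sod2+/+ (horizontal axis), of the genes in 7 lists around the clock (rows), 1 point per gene by its brightest probe set; genes past the limma threshold are coloured and named. The 3 coloured points, Ruvbl2 at -0.68, Hdac3 at -0.53 and Nono at -0.43, lie in the cofactor list; genes in more than 1 list are drawn in each.

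Among 10 other factors of the core loop (Npas2, Nr1d2, Rora and Bhlhe40 among them), 0 passed the limma threshold (0 higher and 2 lower before adjustment, to be read here and in the next lists against 6.68% and 18.4% of all genes) and the median log2 difference was 0.01. The furthest from 0 was Timeless, a replication fork protein that can bind CRY and PER proteins, which read 8.37, 8.93, 8.49 and 8.34 in Sod2+/+ and 8.20, 7.66 and 7.19 in Sod2-/- samples. All Sod2-/- samples were below the Sod2+/+ samples, sample 31 only just, and the log2 difference was -0.85 (SE 0.23, adjusted p = 0.0837 by limma). Without sample 31 it was -1.11 and passed the threshold (adjusted p = 0.0385 by limma). Cipc, a repressor of CLOCK, differed by -0.29 (SE 0.12, adjusted p = 0.230 by limma), and by -0.09 over the mean of its probe sets. Of the 2 other D box factors, the activator Hlf differed by 0.21 (SE 0.11) and the repressor Nfil3 by -0.17 (SE 0.10), with overlapping groups in both; without sample 35 the difference of Hlf was 0.14, and without sample 31 that of Nfil3 was -0.28.

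Among 15 kinases, phosphatases and ubiquitin ligases that set the lifetime of clock proteins, 0 passed (1 higher and 5 lower before adjustment) and the median log2 difference was -0.15. Csnk1d, the casein kinase that phosphorylates PER proteins, read 9.22, 9.07, 9.35 and 9.0 in Sod2+/+ and 9.51, 9.53 and 9.96 in Sod2-/- samples. The groups did not overlap, and the log2 difference was 0.51 (SE 0.13, adjusted p = 0.0721 by limma), but over the mean of its probe sets it was 0.11. Btrc, a ubiquitin ligase subunit that recognises phosphorylated PER proteins, read 9.24, 9.65, 9.35 and 9.27 against 9.11, 8.94 and 7.99, a log2 difference of -0.70 (SE 0.24, adjusted p = 0.158 by limma), which without sample 39 was -0.35 and over the mean of its probe sets -0.18.

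Among 14 output genes, 0 passed (1 higher and 2 lower before adjustment), with a median log2 difference of 0.01. Klf10, a transcription factor under clock control, differed by -0.56 (SE 0.23), and Alas1, the housekeeping form of the first enzyme of heme synthesis, by -0.47 (SE 0.19), both with overlapping groups. Without Sod2+/+ sample 37 the difference of Klf10 was -0.37. The difference of Alas1 was -0.29 without sample 35, -0.25 over the mean of its probe sets and -0.83 with the chip lot as a block.

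The last lists held glucocorticoid-responsive genes and CREB and immediate early genes, and the part of such signals in the values of Per1 was not tested. Of all 18193 genes, 9859 had differences above 0 and 8334 below. Among 13 glucocorticoid-responsive genes 0 passed (2 higher and 2 lower before adjustment), 5 had differences above 0 and 8 below, and the median log2 difference was -0.17. Cebpd, a transcription factor gene induced by glucocorticoids, differed by -0.78 (SE 0.29), by -0.38 over the mean of its probe sets and by -1.26 with the chip lot as a block. Ddit4, which encodes an inhibitor of mTORC1, read 4.59, 5.01, 4.38 and 4.86 in Sod2+/+ and 5.23, 4.44 and 6.62 in Sod2-/- samples, a log2 difference of 0.72 (SE 0.43) that rested on sample 39, was 0.12 without it and 1.22 without sample 35, and turned to -0.27 with the chip lot as a block. Among 17 CREB and immediate early genes 0 passed, also before adjustment, 4 had differences above 0 and 13 below, and the median was -0.08. Ier3, an immediate early gene, read 4.88, 4.48, 4.68 and 5.50 against 5.31, 5.09 and 6.71, a log2 difference of 0.82 (SE 0.38) that was 0.32 without sample 39 and 0.20 with the chip lot as a block. Junb differed by -0.46 (SE 0.42), a value that was -0.12 without Sod2+/+ sample 37, -0.09 without sample 35, -0.85 without sample 39 and -1.19 with the chip lot as a block.

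The targeted gene itself could not serve as a check of the labels. The brightest Sod2 probe set read 8.20 to 8.62 in Sod2+/+ and 8.09 to 8.61 in Sod2-/- samples, and whether it lies in the deleted part of the gene was not determined here. The paper states that mRNA lacking the deleted exon is still made in Sod2-/- cells, and that some Sod2 probe sets lie outside the deletion. The array medians were 4.45 to 4.54, and the 95th percentile of the array was 8.42 to 8.71 in Sod2+/+ and 8.20 to 8.42 in Sod2-/- samples. The log2 difference between the 3' and 5' probe sets of Gapdh, a measure of RNA integrity and labelling, was 1.24 to 1.45 in Sod2+/+ and 1.10 to 1.21 in Sod2-/- samples, without overlap, and its part in the results was not tested.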

How the data were processed

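Total RNA of sorted erythroblasts was hybridised to Affymetrix Mouse430_2 arrays, 1 per sample. Per the submitters' processing notes the authors used GCOS 1.3.037 and RMA (background correction, quantile normalization and summarization), and they deposited log2 expression values per probe set; RMA compresses differences of dim probe sets. The deposited arrays did not share 1 distribution: their medians were 4.45 to 4.54, and their 95th percentiles were 8.42 to 8.71 in Sod2+/+ and 8.20 to 8.42 in Sod2-/- samples. The deposited array settings (of the unit other) gave fluidics station and chip lot.

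The log2 values were used as deposited. The 64 control probe sets were left out. Of 45037 probe sets, 34945 had 1 gene symbol, 932 several and 9160 none; a gene was named only from probe sets with 1 symbol, and its brightest probe set by mean over the 7 samples stood for it. Sod2-/- and Sod2+/+ samples were compared with lmFit and eBayes of limma 3.58.1 (R 4.3.3) with genotype as the only term, and p-values were adjusted by Benjamini-Hochberg over all probe sets (threshold 0.05). The fit was tested on simulated data. Because separate animals are not stated, p-values reflect variation among these samples that may be technical, and the number of arrays limits the precision. Named were all 10 members with all probe sets, from each list the genes past the threshold (up to 4) or otherwise the 2 with the largest change, and the 5 genes most like Per1. The members and lists were chosen with earlier results of these data known. Alternatives were the methods' t-test (equal variances), eBayes with trend and robust estimation, quantile normalization, centring on the median, only probe sets above the median, an offset of 32 on the linear scale, array weights (statmod 1.5.0), station and chip lot as blocks, values within each station, averaging the probe sets of each gene, leaving out each sample and, added after the values were seen, values within the chip lot of the Sod2+/+ arrays. Promoters came from RefSeq GRCm38.p6 and figures from matplotlib 3.10.9.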

Additional observations from a re-analysis of the deposited data

Results flagged for a closer look

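In the Sod2+/+ group of 4 samples, 1 sample lay far from the others in 3 of the 39 probe sets and genes examined. The gap to the nearest other sample, as a share of the range of the group, was 0.845 for Cry1 by 1433733_a_at (sample 37 highest, at 3.75), 0.955 for Cry2 by 1426383_at (sample 29 highest, at 5.14) and 0.8292 for Nono (sample 29 highest, at 10.04). Chance alone marks about 5% of such groups. Without sample 29 the log2 difference of Nono was -0.38 and was no longer called by limma (adjusted p = 0.104).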

How the results depend on the processing

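No paired analysis was possible because the labels do not say which samples were sorted as a pair, and the groups share no replicate number. The count of clock probe sets called higher was 0 under each alternative run except with only probe sets above the median, where it was 1 (Per1), and the count called lower was 0 under each. The log2 difference of Per1 kept its sign throughout, at 0.33 with the chip lot as a block and within the chip lot of the Sod2+/+ arrays, 1.69 within fluidics station 1, and 0.60 to 1.30 over the leave-one-out fits. Of the other 80 pathway genes, the count called higher was 1 with only probe sets above the median (Csnk1d) and otherwise 0; the count called lower was 0 by the methods' t-test, 1 after quantile normalization, 0 with the chip lot as a block and 1 to 4 over the leave-one-out fits, of which the fit without Sod2-/- sample 35 gave 1. Ddit4 reversed to -0.27 with the chip lot as a block. The calls of Ruvbl2, Hdac3 and Nono were lost under 3, 3 and 13 alternatives. Of 443 values of members under alternatives, 36 moved by more than 1 SD, and the cause was not tested. With 3 Sod2-/- arrays, small changes of these transcripts were not detectable here.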
